A study of Homo sapiens with 9 samples.

Results

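Hyaluronan is a long, unbranched sugar polymer that cells spin out at the plasma membrane into the surrounding matrix. HAS synthases join UDP-glucuronate and UDP-N-acetylglucosamine, the receptor CD44 ties the chains to the cell surface, and hyaluronidases together with the hyaluronan-binding protein CEMIP break them down. In breast cancer cells of mesenchymal character, HAS2 is known as the main synthase and CD44 as an abundant receptor. Expression of 8 genes of this system was examined, out of 24344 genes in the count table used. They were HAS2 and HAS3 (synthases), UGDH (precursor enzyme), CD44 (receptor), and HYAL1, HYAL2, HYAL3 and CEMIP (breakdown). The 8 genes were listed by symbol, and all 8 passed the filter on low counts, as did 14195 genes in all. HAS2 was chosen by its large differences from Baituling, which were known from earlier results of these libraries. The other genes were placed with it for their roles, and whether their values played a part is not recorded. The differences between treatments may therefore enter the choice, and they are given for the 8 genes as a description without p-values.

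All cells were of MDA-MB-231, a human cell line established from a breast adenocarcinoma, and were treated for 48 h. CKI (Compound Kushen Injection, from the herbs Kushen and Baituling) was used at 2.0 mg/ml, Kushen injection contained the first herb only, and Baituling injection the second herb only, both matched to CKI in dilution. Each treatment had 3 libraries, 9 in all, and untreated libraries were not analysed here. A difference is therefore between treatments and shows no change from untreated cells.

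The total count per library was 20144628 to 23782071. Levels are given as CPM, counts relative to library sizes scaled by TMM, a method that assumes most genes do not differ. Libraries differed in composition by treatment. A count was found for 16259 to 16379 genes in Baituling, 17017 to 17281 in Kushen and 17555 to 17786 in CKI, and scaling by library totals moved the median log2 fold change over all genes by 0.29 in CKI against Baituling, 0.21 in Kushen against Baituling and 0.08 in CKI against Kushen. Markers of the line were present, with VIM at 2070 ± 52.0 CPM in Baituling, 584 ± 19.2 in Kushen and 351 ± 13.8 in CKI (SD, n = 3), and ZEB1 between 65.0 and 72.7 CPM in all 9 libraries. ESR1 and PGR were at or near 0 (at most 0.177 CPM), whereas ERBB2 averaged 104 CPM in Baituling, 64.1 in Kushen and 56.8 in CKI. The 8 markers of blood cells, endothelium and fibroblasts summed to 14.6 to 18.7 CPM in Baituling, 22.05 to 26.1 in Kushen and 34.0 to 39.4 in CKI. Most of this was COL1A1, and the other 7 summed to at most 1.86 CPM in a library. The part of these shifts in the results below was not tested. In such bulk samples fewer cells of a kind and less RNA per cell cannot be told apart.

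Promoter sequences of CEMIP and HYAL2 are shown, since these breakdown genes differed most and least between CKI and Baituling among the 7 members with a promoter searched here (HAS2 was not searched). They are RefSeq promoters of assembly GRCh38.p14 cut to the 250 bases before the RefSeq transcription start, and placed on GRCh37, the assembly of hg19, by an exact match that occurred 1 time on the chromosome. Capitals mark GC boxes (GGGCGG), the core of the xenobiotic response element (GCGTG), which the aryl hydrocarbon receptor binds, and the TATA box (TATAAA), each searched on both strands. For HYAL2 the 37 bases that lie in an exon annotated in GENCODE are not printed, and for CEMIP the last 27 printed bases lie in such an exon, since GENCODE starts the gene upstream of the RefSeq start.
CEMIP, chr15:81071461-81071710, plus strand: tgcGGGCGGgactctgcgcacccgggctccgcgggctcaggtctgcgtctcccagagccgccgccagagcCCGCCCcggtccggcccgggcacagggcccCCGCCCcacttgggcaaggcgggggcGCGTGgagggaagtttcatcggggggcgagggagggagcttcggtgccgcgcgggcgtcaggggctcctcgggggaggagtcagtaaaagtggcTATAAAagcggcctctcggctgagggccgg
HYAL2, chr3:50360214-50360426, minus strand: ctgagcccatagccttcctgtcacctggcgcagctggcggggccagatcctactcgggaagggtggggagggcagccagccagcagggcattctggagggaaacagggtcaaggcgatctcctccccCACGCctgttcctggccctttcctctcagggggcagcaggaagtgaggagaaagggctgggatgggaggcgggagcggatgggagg

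The CEMIP window held 3 GC boxes, 1 xenobiotic core and a TATA box 30 to 25 bases before the RefSeq start, where it spans the gene start given by GENCODE (81071684), and 74.4% of its 250 bases were G or C. In HYAL2 the xenobiotic core, on the opposite strand (CACGC as printed), was the only match. Over the 7 members the GC box was found in 6, the xenobiotic core in 4 (CEMIP, HAS3, HYAL1 and HYAL2) and the TATA box in CEMIP alone, against 42.6%, 32.2% and 10.7% of 35116 promoters of this length. The core of the antioxidant response element (TGACNNNGC, found in 10.9% of promoters) was present in CD44 only. No member held the AP-1 element TGANTCA (6.57% of promoters) or the CRE TGACGTCA (1.65%), which says only that these letters were not in the 250 bases searched. A match is a description of the letters and not a binding site. Exons annotated in GENCODE covered all 250 bases searched in CD44, 159 in UGDH and 37 in HYAL1.

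Among the synthases, HAS2 (chromosome 8, 122624356 to 122653680, build GRCh37) was low in both treatments that contain Kushen and high in Baituling. Its count was 83, 57 and 74 in the 3 CKI libraries, 91, 86 and 82 in Kushen and 1347, 1085 and 1105 in Baituling. In CPM these were 3.26, 2.30 and 2.92 for CKI, 3.66, 3.53 and 3.64 for Kushen and 65.7, 59.5 and 61.002 for Baituling. Every Baituling library lay far above the 6 others, and the highest CKI library lay just below the lowest Kushen library. HAS2 was 21.9-fold lower in CKI than in Baituling, a log2 fold change of -4.45 ± 0.09 (SE), and 17.2-fold lower in Kushen than in Baituling (-4.10 ± 0.09). Ordered by log2 fold change from the lowest, it was number 2 of the 14195 genes in the first of these comparisons and number 6 in the second. Against Kushen, CKI was at -0.35 ± 0.14, a difference that shrank to -0.22 without CKI replicate 2. The antisense gene HAS2-AS1 shares 251 bases of exon with HAS2, and in these unstranded libraries reads of the shared bases could not be assigned to a strand.

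HAS3 (chromosome 16, 69139556 to 69152622), which makes shorter chains than HAS2, was expressed at a low level throughout. Its CPM values were 1.84, 2.14 and 2.17 in CKI, 2.13, 1.68 and 1.33 in Kushen and 3.51, 2.96 and 3.15 in Baituling, on 30 to 72 counts per library. All 3 Baituling libraries were above the others, while CKI and Kushen overlapped. The log2 fold change was -0.65 ± 0.19 in CKI against Baituling, -0.90 ± 0.19 in Kushen against Baituling and 0.25 ± 0.20 in CKI against Kushen. The second value went past the fold threshold of 1 without Kushen replicate 1 (-1.09), the Kushen library with the highest HAS3. HAS3 shares 365 bases of exon with CHTF8 on the opposite strand, which ranged less, from 33.6 ± 2.43 CPM in CKI to 38.7 ± 0.917 in Baituling.

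**Figure D1:**
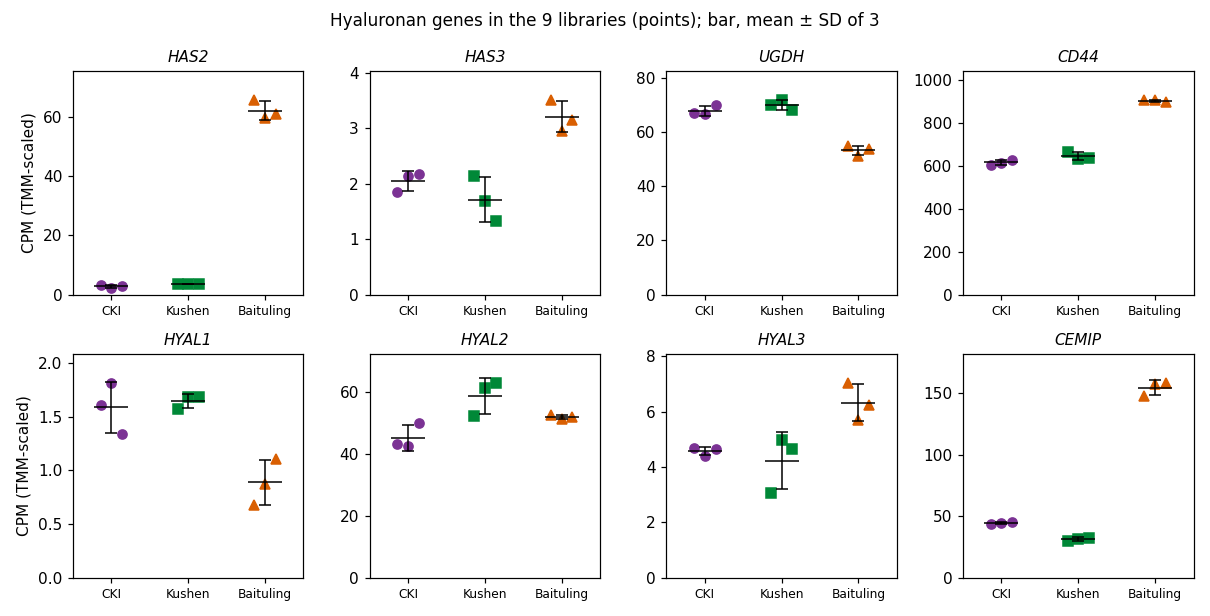
CPM on TMM-scaled library sizes (y axis, each panel from 0) of the 8 genes in the 3 libraries of each treatment (x axis), with circles for CKI, squares for Kushen and triangles for Baituling, and a bar for the mean with its SD. HAS2, CEMIP, CD44 and HAS3 were highest in the 3 Baituling libraries, UGDH and HYAL1 were lowest there, and HYAL2 differed little.

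To set synthases side by side, CPM was divided by the length of merged exons in kb (RPKM). On this per-length scale HAS2 reached 14.6 ± 0.765 RPKM in Baituling, 0.851 ± 0.0167 in Kushen and 0.666 ± 0.115 in CKI (SD, n = 3), and HAS3 reached 0.617 ± 0.0540, 0.330 ± 0.0773 and 0.394 ± 0.0346 in the same order. HAS1, the third synthase, had 0 to 12 counts per library and was not tested. HAS2 thus made up 95.6% ± 0.0638 of the synthase RNA in Baituling, 70.5% ± 4.85 in Kushen and 56.5% ± 6.83 in CKI. The summed synthase level was 15.3 ± 0.801 RPKM in Baituling, against 1.21 ± 0.0999 in Kushen and 1.18 ± 0.148 in CKI, the latter pair overlapping. The difference in summed synthase level between Baituling and the other treatments was thus a difference in HAS2.

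UGDH (chromosome 4, 39500375 to 39529931) oxidises UDP-glucose to UDP-glucuronate, one of the sugars that the synthases use. It ran opposite to HAS2. UGDH ranged from 51.3 to 54.7 CPM in Baituling, from 66.8 to 69.8 in CKI and from 68.0 to 71.8 in Kushen, so Baituling lay below both other treatments without overlap. The log2 fold change was 0.35 ± 0.05 in CKI against Baituling, 0.39 ± 0.05 in Kushen against Baituling and -0.04 ± 0.05 in CKI against Kushen, and this last sign turned under library totals (0.030). UGDH shares 513 bases of exon with the antisense gene UGDH-AS1, whose own counts were 8 to 20 per Baituling library, 32 to 49 per CKI library and 39 to 48 per Kushen library, against 936 to 1768 for UGDH.

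CD44 (chromosome 11, 35160429 to 35253949), the principal hyaluronan receptor, was the most abundant of the 8 genes per length, at 90.5 ± 0.452 RPKM in Baituling, 64.5 ± 1.84 in Kushen and 61.6 ± 1.17 in CKI. Its CPM values were 605, 615 and 628 in CKI, 665, 632 and 635 in Kushen and 907, 906 and 899 in Baituling. The Baituling libraries were the highest, and every CKI library was below every Kushen library by a small margin. CD44 was lower in CKI than in Baituling by a log2 fold change of -0.55 ± 0.04 and lower in Kushen than in Baituling by -0.49 ± 0.04. These values came to -0.27 and -0.28 under library totals. CKI against Kushen was -0.06 ± 0.04 but 0.010 under library totals, so no order of these treatments can be given for CD44. The counts do not separate splice forms of CD44, of which the standard and variant forms are known.

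**Figure D2:**
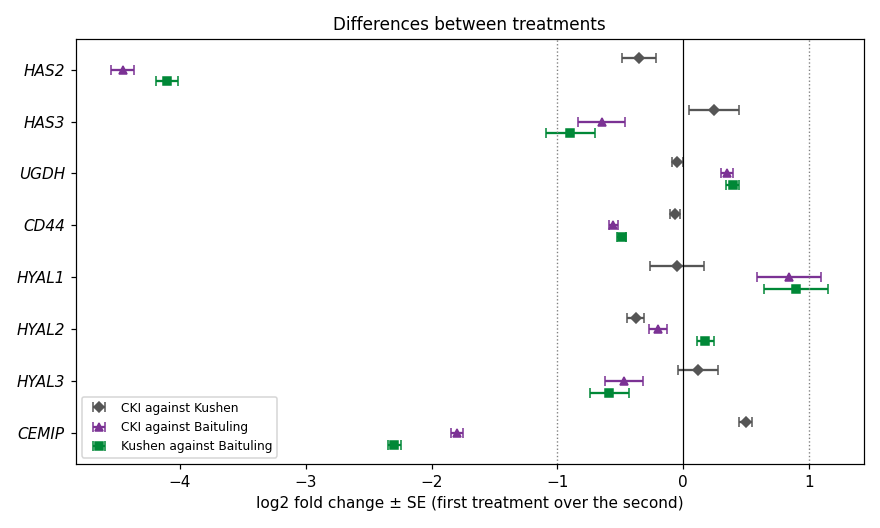
Log2 fold change (x axis) with its standard error for the 8 genes (y axis) in CKI against Kushen (diamonds), CKI against Baituling (triangles) and Kushen against Baituling (squares). Dotted lines mark the fold threshold of the study, and HAS2 and CEMIP alone lie beyond it.

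Among the breakdown genes, CEMIP (chromosome 15, 81071684 to 81244117), which binds hyaluronan and drives its depolymerisation at the cell surface, showed a pattern like that of HAS2 but with CKI above Kushen. Its CPM values were 43.3, 44.8 and 45.2 in CKI, 29.97, 31.9 and 32.6 in Kushen and 147, 158 and 158 in Baituling. No libraries of different treatments overlapped. CEMIP was 3.47-fold lower in CKI than in Baituling (log2 fold change -1.80 ± 0.05), 4.91-fold lower in Kushen than in Baituling (-2.29 ± 0.05) and higher in CKI than in Kushen by 0.50 ± 0.05. Counted from the lowest log2 fold change, it was number 218 of 14195 genes in the first comparison and number 90 in the second. CEMIP shares 224 bases of exon with MESD on the opposite strand, which averaged 59.7 ± 0.0952 CPM in Baituling, 57.2 ± 0.930 in Kushen and 48.1 ± 2.49 in CKI.

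The genes HYAL1, HYAL2 and HYAL3 lie within 30 kb of each other on chromosome 3 (50330262 to 50360213), all on the minus strand, and they did not move together. HYAL1 (50337321 to 50349812), the lysosomal hyaluronidase, was low, with 34 to 45 counts per CKI library, 38 to 41 per Kushen library and 14 to 20 per Baituling library. It was higher than Baituling by a log2 fold change of 0.85 ± 0.25 in CKI and 0.90 ± 0.25 in Kushen. CKI and Kushen overlapped for HYAL1 (-0.05 ± 0.21, and 0.024 under library totals). The first pair of values passed the fold threshold under library totals (1.13 and 1.11) and without Baituling replicate 3 (1.02 and 1.08).

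HYAL2 (50355221 to 50360213), which is anchored to the cell surface, was the hyaluronidase with the highest level per length. Its range was 51.2 to 52.5 CPM in Baituling, 52.0 to 62.7 in Kushen and 42.3 to 49.9 in CKI. Kushen and Baituling overlapped (log2 fold change 0.18 ± 0.07), and CKI was below Kushen by -0.38 ± 0.07. CKI was below Baituling by -0.20 ± 0.07 on the TMM scale but above it by 0.086 under library totals, so the sign of this difference depended on the scaling.

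HYAL3 (50330262 to 50336836), a hyaluronidase of weak known activity, ranged from 5.70 to 7.02 CPM in Baituling, 3.06 to 4.96 in Kushen and 4.39 to 4.67 in CKI. Baituling lay above the other libraries, by -0.47 ± 0.15 for CKI and -0.59 ± 0.15 for Kushen on the log2 scale. CKI and Kushen overlapped (0.12 ± 0.16), and the sign turned without Kushen replicate 1 (-0.075), whose HYAL3 was the lowest of the 9. HYAL3 shares 232 bases of exon with NAA80 and 43 with IFRD2, and HYAL2 shares 509 with TUSC2, all on the same strand. The handling of reads in these bases is not stated. NAA80 was -0.54 ± 0.09 and IFRD2 -0.97 ± 0.06 in CKI against Baituling, both of the same sign as HYAL3, whereas TUSC2 was at 0.29 ± 0.06, of opposite sign to HYAL2. The part of shared reads in these values was not tested.

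Of the 11 neighbouring genes of this cluster that were listed, 10 were tested. In edgeR, 3 were called lower in CKI than in Baituling (RASSF1, SEMA3B and ZMYND10) where 7.91% of all genes were called lower, and 2 lower in Kushen than in Baituling (RASSF1 and ZMYND10), where 6.73% were. These names were chosen after their values were seen. ZMYND10 had only 8 to 30 counts per library. In CKI against Kushen, edgeR called none of the 10, and 5 had an adjusted p under 0.05, where 39.8% of all genes did.

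**Figure D3:**
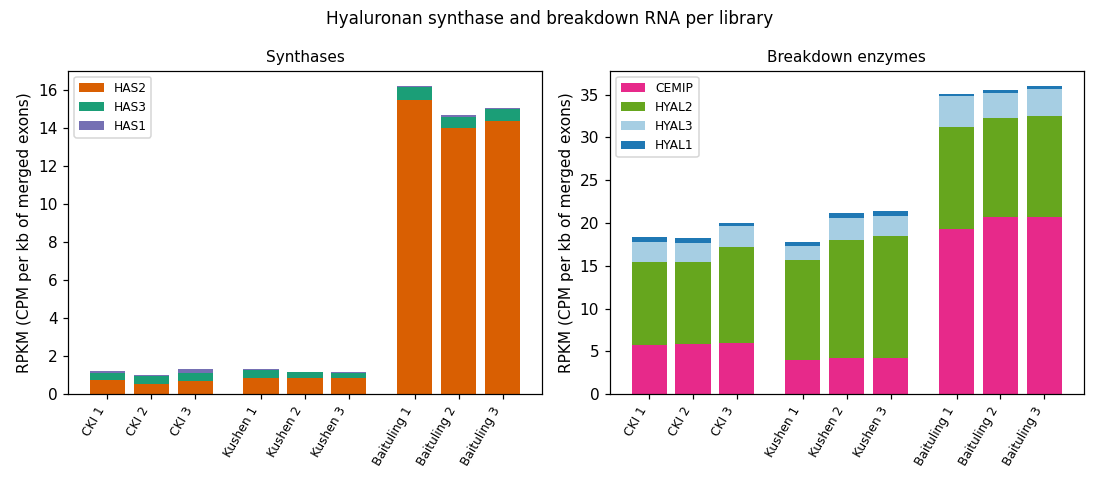
Stacked RPKM (CPM per kb of merged exons, y axis from 0) of the 3 synthase genes (left) and the 4 breakdown genes (right) in each of the 9 libraries (x axis). HAS2 fills most of the synthase bar in the Baituling libraries, and CEMIP accounts for the taller breakdown bars there while HYAL2 stays at a similar height.

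Per length, the breakdown genes summed to 35.5 ± 0.483 RPKM in Baituling, 20.1 ± 2.01 in Kushen and 18.9 ± 1.004 in CKI. CEMIP made up 57.1% ± 1.63 of this sum in Baituling, 20.7% ± 1.28 in Kushen and 31.0% ± 1.27 in CKI, and none of these shares overlapped between treatments. The 3 hyaluronidases without CEMIP came to 15.2 ± 0.449 RPKM in Baituling, 15.9 ± 1.83 in Kushen and 13.0 ± 0.923 in CKI. HYAL2 held 77.0% to 83.3% of the hyaluronidase RNA, taken as the mean of each treatment. The excess of breakdown RNA in Baituling was therefore carried by CEMIP, and the synthase and CEMIP levels were high in the same libraries.

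The 8 genes were next counted by the threshold of the study, an adjusted p under 0.05 and a log2 fold change beyond 1 in edgeR's quasi-likelihood test. In CKI against Baituling 2 of the 8 were called, both lower in CKI (HAS2 and CEMIP), where 19.1% of all genes tested were called and 7.91% were called lower. In Kushen against Baituling the same 2 genes were called lower, where 15.2% of all genes were called and 6.73% lower. In CKI against Kushen edgeR and DESeq2 called none of the 8, where edgeR called 1.90% of all genes (1.70% higher and 0.197% lower). In edgeR 3 of the 8 had an adjusted p under 0.05, where 39.8% of all genes did. The libraries of the treatments did not overlap for 8 of the 8 genes in CKI against Baituling (78.3% of all genes), 7 in Kushen against Baituling (73.1%) and 4 in CKI against Kushen (49.5%). The median log2 fold change of the 8 was -0.51, -0.54 and -0.05 in these comparisons, against 0.03, 0.02 and 0.01 over all genes. Nothing is read from these counts, since the differences were known when the genes were listed, and the first pair of comparisons shares the Baituling libraries.

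The wider pathway was examined in a list of 65 other symbols covering precursor supply, other receptors, breakdown enzymes, matrix proteins that bind hyaluronan, and proteins that link CD44 to actin or cleave it. The table held 63 of them and 47 were tested. HAS2-AS1 and HYALP1 were not matched in the table used. In CKI against Baituling 42 of the 47 had an adjusted p under 0.05, 21 higher and 21 lower, where this held for 76.1% of all genes (39.1% higher and 37.0% lower). The fold threshold was passed by 7, with 4 higher and 3 lower, where 11.2% of all genes were called higher and 7.91% lower. In Kushen against Baituling 40 passed the adjusted p (71.6% of all genes, 35.6% higher and 36.1% lower) and 9 were called, 6 higher (8.50% of all genes) and 3 lower (6.73%). In CKI against Kushen 13 passed the adjusted p, 4 higher and 9 lower, where 39.8% of all genes did (19.6% higher and 20.2% lower). None was called by edgeR or DESeq2. The median log2 fold change of the 47 was 0.03, 0.12 and -0.07 in the same order.

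**Figure D4:**
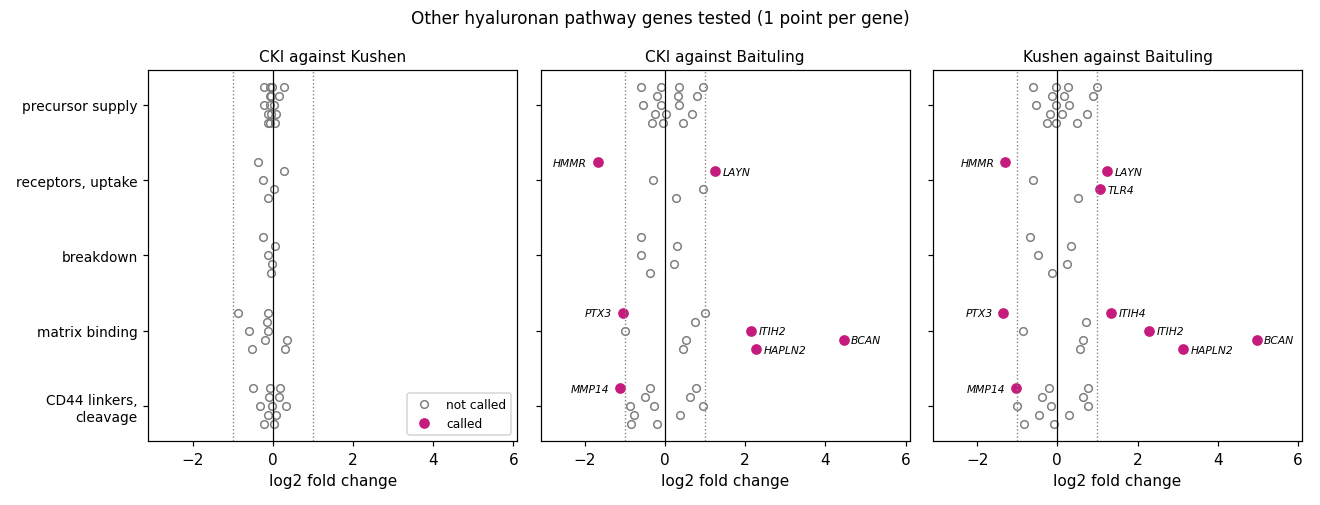
Log2 fold change (x axis) of the 47 other pathway genes tested, 1 point per gene, by role (y axis) in the 3 comparisons, with filled points for genes called at an adjusted p under 0.05 and a log2 fold change beyond 1 (dotted lines). No point is filled in CKI against Kushen, and BCAN, HAPLN2 and ITIH2 lie farthest to the right on very few Baituling counts.

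Among the receptors, HMMR fell and LAYN rose relative to Baituling. Genes named from the wider list were picked by their call and size of change in this same fit. Their adjusted p-values are therefore a description and no independent evidence. HMMR, a hyaluronan receptor that also binds the mitotic spindle, averaged 12.6 ± 0.717 CPM in Baituling, 5.09 ± 0.418 in Kushen and 3.91 ± 0.143 in CKI (SD, n = 3). Its log2 fold change was -1.68 ± 0.11 in CKI against Baituling (edgeR adjusted p 3.11e-11) and -1.30 ± 0.10 in Kushen against Baituling (1.21e-09). LAYN, the hyaluronan receptor layilin, averaged 74.8 ± 1.75 CPM in Baituling, 175 ± 4.43 in Kushen and 178 ± 4.11 in CKI. LAYN was higher than Baituling by 1.25 ± 0.04 in CKI (edgeR adjusted p 2.31e-15) and by 1.23 ± 0.04 in Kushen (4.75e-15). TLR4, an innate immune receptor that responds to hyaluronan fragments, was called higher in Kushen than in Baituling (1.07 ± 0.05, adjusted p 8.09e-13), and stood at 0.95 ± 0.05 in CKI against Baituling (1.24 under library totals). The difference between these treatments, CKI against Kushen, was -0.11 ± 0.05 (edgeR adjusted p 0.0676).

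Of the 12 genes tested that link CD44 to actin or cleave it, 1 passed the fold threshold. MMP14, a membrane metalloproteinase known to cleave CD44, averaged 1947 ± 33.2 CPM in Baituling, 950 ± 78.4 in Kushen and 895 ± 35.3 in CKI. Its log2 fold change was -1.12 ± 0.05 in CKI against Baituling (edgeR adjusted p 1.45e-13) and -1.04 ± 0.05 in Kushen against Baituling (6.96e-13). Both fell short of the fold threshold under library totals (-0.83 and -0.82), and the second also did without Kushen replicate 1 (-0.97). None of the 16 precursor genes and none of the 5 other breakdown genes tested was called in any comparison in edgeR. At an adjusted p under 0.05 the precursor genes numbered 13 in CKI against Baituling, 12 in Kushen against Baituling and 4 in CKI against Kushen. The breakdown genes numbered 5, 5 and 1 in the same order. Of all genes 76.1%, 71.6% and 39.8% passed in these comparisons. DESeq2 called 8, 9 and 0 genes of the whole list in CKI against Baituling, Kushen against Baituling and CKI against Kushen. The edgeR counts were 7, 9 and 0, where edgeR called 19.1%, 15.2% and 1.90% of all genes.

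The matrix proteins gave most of the called genes, but largely on few reads. BCAN, a brain proteoglycan, had 18 to 29 counts per CKI library, 25 to 36 per Kushen library and 0, 2 and 0 in Baituling. The ratio of summed counts was 25.2 for CKI over Baituling and 36.0 for Kushen over Baituling. Both rest on 2 Baituling counts, so the size of the difference is poorly determined. HAPLN2, a link protein, had 10 to 18 counts per CKI library, 18 to 26 in Kushen and 0, 5 and 1 in Baituling. ITIH2, a heavy chain that is transferred onto hyaluronan, had 6 to 15 counts in CKI and Kushen libraries and 4, 0 and 1 in Baituling. BCAN, HAPLN2 and ITIH2 passed the filter on low counts through the CKI and Kushen libraries, where they were higher, so no p-value is given for them. They make up 3 of the 4 genes called higher in CKI than in Baituling. Single Baituling libraries held most of their reads there, replicate 2 for BCAN and HAPLN2 and replicate 1 for ITIH2, and BCAN had 0 counts in the other Baituling libraries. PTX3, which is built into hyaluronan matrix, was the called gene of this group that fell, from 128 ± 5.0003 CPM in Baituling to 61.9 ± 3.68 in CKI and 50.4 ± 2.11 in Kushen (edgeR adjusted p 5.56e-13 and 2.69e-14). The log2 fold change of PTX3 in CKI against Baituling, -1.05 ± 0.05, fell short of the fold threshold under library totals (-0.76). ITIH4 was the other gene called, in Kushen against Baituling, on 8 to 16 counts per Kushen library and 3 to 5 per Baituling library. It too passed the filter through the libraries where it was higher, and 70.3% of its exon bases are shared with another annotated gene on the same strand. PTX3 and ITIH4 were named after their values were seen.

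Genes whose profile over the 9 libraries was closest to that of HAS2 were sought by the root mean square difference of centred log2 CPM over the 14195 genes tested. They were PDZK1IP1 (0.30), IGFBP1 (0.36), LGALS12 (0.40), VCAM1 (0.43) and SEMA5B (0.45), with correlations to HAS2 of 0.976 to 0.997 over 9 libraries that mostly reflect Baituling against the rest. VCAM1, an adhesion receptor, averaged 64.2 ± 1.52 CPM in Baituling, 7.62 ± 0.620 in Kushen and 4.53 ± 0.188 in CKI. IGFBP1, which binds insulin-like growth factors, averaged 77.6 ± 3.62, 4.37 ± 0.971 and 5.56 ± 0.533 in the same order and so placed CKI above Kushen, unlike HAS2. SEMA5B was the least expressed, at 3.97 ± 0.570 CPM in Baituling, 0.26 ± 0.18 in Kushen and 0.17 ± 0.04 in CKI. It passed the filter on low counts through the Baituling libraries. Its profile in the CKI and Kushen libraries lies near the floor and depends on the prior count of 2 used for log2 CPM.

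The 5 genes closest to CEMIP lay nearer, with differences of 0.12 to 0.15 on the log2 scale. They were SLCO4A1-AS1, OAS3, MGAT5B, FHDC1 and OASL. OAS3 and OASL, which belong to the interferon-induced oligoadenylate synthetase family, averaged 37.7 ± 2.71 and 17.1 ± 0.708 CPM in Baituling, 9.03 ± 0.757 and 4.24 ± 0.207 in Kushen, and 10.8 ± 0.719 and 5.87 ± 0.399 in CKI. All 5 placed CKI between Kushen and Baituling by their means, as CEMIP did.

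**Figure D5:**
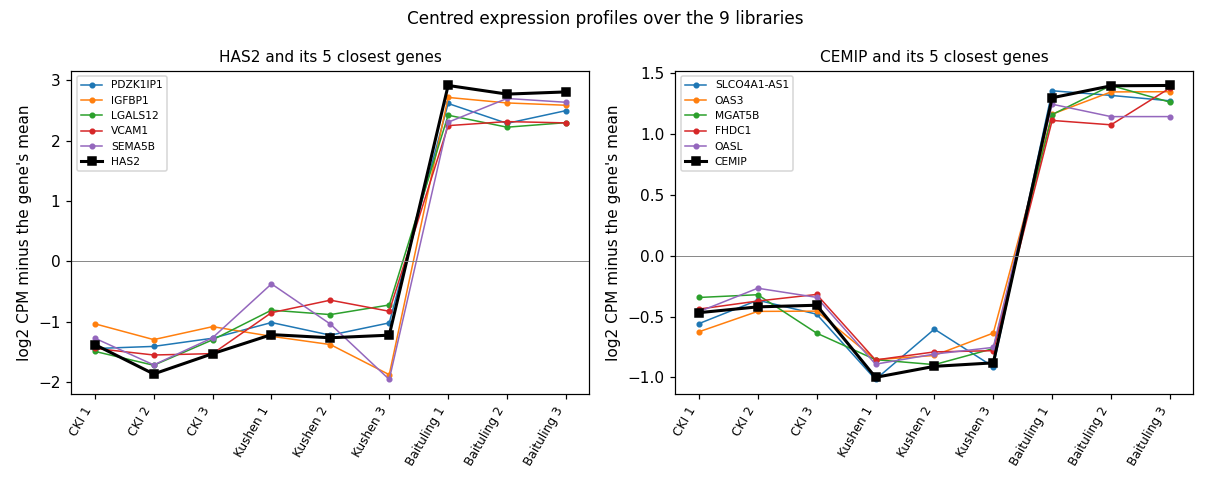
Log2 CPM minus the mean of each gene (y axis) in the 9 libraries (x axis) for HAS2 (left, black squares) and CEMIP (right, black squares) with their 5 closest genes (coloured lines). All 10 genes have their highest mean in Baituling, and of the genes like HAS2 only IGFBP1 has a lower mean in Kushen than in CKI, whereas all 5 like CEMIP do.

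Within the 8 genes, correlations of log2 CPM over the 9 libraries are given as a description, since all points share the 3 treatments. HAS2 correlated with CD44 at 0.99, with CEMIP at 0.96, with HAS3 at 0.84 and with HYAL3 at 0.77. It ran opposite to UGDH (-0.96) and HYAL1 (-0.91), and was little related to HYAL2 (0.11). In CD44 this went with a much smaller range than in HAS2.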

How the data were processed

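Total RNA was sequenced unstranded in 9 libraries of MDA-MB-231 cells, 3 each for CKI, Kushen and Baituling. The authors trimmed reads with Trim Galore 0.3.7, aligned them with STAR 2.5.3a to hg19 and deposited raw counts per gene. The counting program and annotation are not given in the sources used here. Groups came from the sample titles, and table columns were matched by treatment initial and replicate number.

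The 24566 rows held 222 repeats of an Ensembl gene with identical counts, which were dropped. Symbols, positions and merged exon lengths came from GENCODE on GRCh37, and further symbols from RefSeq. Genes were kept by filterByExpr in edgeR 4.0.16 (minimum count 10, minimum total 15), scaled by TMM and fitted in 1 model of the 3 treatments (glmQLFit and glmQLFTest), two-sided, with Benjamini-Hochberg adjustment over 14195 genes. A gene was called at an adjusted p under 0.05 and a log2 fold change beyond 1. Alternatives were RLE scaling, library totals, other filters, DESeq2 1.42.0, a replicate block, only the 2 groups compared, and each library left out. An exact permutation test of 3 against 3 cannot go below 0.1. Replicates differed by more than sampling noise (chi-square per gene 1.70 to 6.85). The series calls them biological replicates without naming separate cultures. The p-values set differences between treatments against the spread between these libraries. That spread may be technical, in which case the p-values do not extend to new cultures.

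The members and lists were chosen with earlier results of these data known. All 8 members were named. Of the other pathway genes, up to 3 called genes with the largest change were named per comparison and role. Neighbours of the HYAL genes sharing exons with a member were added (CHTF8, UGDH-AS1 and MESD on the same ground, after their values were seen), and the 5 genes closest in profile to HAS2 and to CEMIP, the other member with the largest difference between CKI and Baituling.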

Additional observations from a re-analysis of the deposited data

How the results depend on the processing

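HAS2 and CEMIP kept their direction and their call in both comparisons with Baituling under all alternatives run. The alternatives refit the libraries whose differences were known when the genes were listed, so this is a description and no independent evidence. Under library totals 11 of the other pathway genes were called in CKI against Baituling in place of 7 (10 higher and 1 lower in place of 4 and 3), and 10 in Kushen against Baituling in place of 9 (8 higher and 2 lower in place of 6 and 3). The calls over all genes also shifted toward higher under this scaling. Of all called genes 80.0% were higher in CKI against Baituling in place of 58.6%, and 74.6% in Kushen against Baituling in place of 55.8%. The order of the 3 treatments by mean level was kept for 4 of the 8 members. In CKI against Kushen the log2 fold change then reversed to 0.030 for UGDH, 0.010 for CD44 and 0.024 for HYAL1, and in CKI against Baituling to 0.086 for HYAL2. A minimum of 10 counts in each library leaves out BCAN, HAPLN2, ITIH2 and ITIH4, among others. Then 4 pathway genes were called in CKI against Baituling (1 higher and 3 lower) and 6 in Kushen against Baituling (3 and 3), and over all genes 102, 1808 and 1415 were called in place of 270, 2715 and 2162 in CKI against Kushen, CKI against Baituling and Kushen against Baituling.

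Leaving out each library in turn gave 7 to 10 pathway genes in CKI against Baituling and 8 to 11 in Kushen against Baituling, and 2 to 3 members in each. Over all genes 2677 to 2845 were then called in CKI against Baituling and 2100 to 2264 in Kushen against Baituling. In CKI against Kushen the values then ranged from -0.16 to 0.055 for HYAL1, -0.075 to 0.25 for HYAL3, -0.0080 to 0.035 for LAYN and -0.42 to 0.23 for ITIH2, so the sign of these near-zero differences was not fixed. With the replicate number as a replicate block 0, 7 and 9 pathway genes and 0, 2 and 2 members were called, as without it. The labels share only a number, and same-numbered samples correlated at -0.07 to 0.12 in their deviations, with the own number best in 2 of 18 comparisons. Depth limited the low genes, with a standard error of 0.25 for HYAL1 and 0.19 for HAS3 in CKI against Baituling, where it was 0.04 for CD44.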

Other observations

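Enzymes that supply UDP-N-acetylglucosamine differed in both directions below the fold threshold. The genes given in this section were picked after their values were seen, so their adjusted p-values are a description. GFPT1, an enzyme of the rate-limiting step of the hexosamine pathway, averaged 86.99 ± 4.07 CPM in Baituling, 171 ± 7.39 in Kushen and 168 ± 5.05 in CKI (SD, n = 3). Its log2 fold change over Baituling was 0.95 ± 0.05 in CKI and 0.98 ± 0.05 in Kushen (edgeR adjusted p 8.17e-13 and 7.13e-13). GFPT2, which serves the same step, did not follow it. Against Baituling GFPT2 was at 0.03 ± 0.05 in CKI and -0.26 ± 0.05 in Kushen (0.31 and -0.05 under library totals). Per length GFPT2 was above GFPT1 in Baituling (14.1 against 9.83 RPKM). PGM3, which acts later in that pathway, rose by 0.79 ± 0.05 and 0.90 ± 0.05 (adjusted p 6.94e-11 and 1.35e-11). UAP1, which forms the final UDP-sugar, fell by 0.60 and 0.53 on the log2 scale (adjusted p 1.43e-10 and 1.26e-09), from 173 ± 1.91 CPM in Baituling to 114 ± 3.51 in CKI and 120 ± 4.37 in Kushen. GFPT1, PGM3 and UAP1 kept their direction against Baituling under library totals, where GFPT1 and PGM3 also passed the fold threshold. UGP2, which makes the UDP-glucose that UGDH uses, differed little, at -0.05 in CKI against Baituling and 0.23 under library totals.

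HEXA, a subunit of a lysosomal enzyme that trims hyaluronan fragments, averaged 44.9 ± 3.70 CPM in Baituling, 32.2 ± 0.829 in Kushen and 29.7 ± 1.46 in CKI. Its edgeR adjusted p against Baituling was 6.74e-08 in CKI and 1.41e-06 in Kushen.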
